A study of Mus musculus with 48 samples.

Results

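The genes described here are 39 genes by which natural killer (NK) cells and T cells recognise and kill other cells, taken by gene symbol from the 54735 genes counted in RNA-seq libraries of splenic myeloid cells. They fall into 15 NK cell receptors and adaptors, 12 effectors and regulators of the cytotoxic program, and 12 genes of the T cell receptor (TCR) and its signalling. The libraries were made from male Balb/c mice of 10 weeks, WT or labelled *Il1rl1*-/-, a label for loss of the gene of the IL-33 receptor. Cells low in Ly6G were sorted from spleens as monocytes (CD11bhi F4/80-), precursors of red pulp macrophages (pre-RPMs, CD11bhi F4/80lo), and red pulp macrophages (RPMs, CD11blo/- F4/80hi). Each of the 4 mice per genotype gave 1 library of each cell type, 24 libraries in all, and no group received a treatment. The labels name no NK or T cell marker in the sort. In the study, the populations were quantified by flow cytometry among cells low in NK1.1. That gate is not named for these libraries, and whether it removes NK cells from Balb/c spleens was not tested.

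NK cells are innate lymphocytes that weigh signals from activating and inhibitory receptors on a target cell. In rodents many of these receptors are C-type lectins of the Klr families, encoded side by side in a single gene complex. Once triggered, NK cells and cytotoxic T cells release granules in which perforin opens the target membrane and granzymes enter to start cell death. T cells use the same granules but recognise targets through the TCR, which signals through the CD3 chains and the kinases Lck and Zap70. NK cells share several of these signalling genes, such as *Cd247*, *Zap70*, and *Lck*, but carry no complete surface TCR.

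The total count on genes ranged from 3562367 to 6559454 per library, and values are given as CPM, counts scaled to the size of each library. A count of 3 or less in a library was treated as not told apart from 0. The counts of *Il1rl1* go against the genotype labels in monocytes (12 to 28 in WT, 51 to 73 in *Il1rl1*-/- labelled libraries) and in pre-RPMs (13 to 24 and 42 to 76). In RPMs they were 5 to 13 and 1 to 7. Genotypes are therefore named by label. Of the 39 genes, 12 lie on chromosome 6, and 11 of these are Klr genes between positions 122270596 and 130233322 of GRCm38. Reads of close copies cannot always be assigned to a single gene. Of the distinct 50-base stretches in annotated transcripts (GENCODE M21), those also found in another gene made up 44.0% in *Trbc2* (shared with *Trbc1*), 38.6% in *Klrc1*, 33.1% in *Klra8*, 31.5% in *Klra9*, 19.9% in *Ifng*, 17% in *Klrb1c*, 16.3% in *Klrc2*, 13.4% in *Sh2d1b1*, and 12.3% in *Klra7*, so these values are uncertain. For *Ncr1*, *Il2rb*, *Gzma*, *Gzmb*, *Prf1*, and *Ccl5* none was shared.

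In monocytes, the granule and NK receptor genes were well above the detection limit, and the genes of the TCR chains were low. The 39 genes together took 0.128% to 0.451% of the counts in WT monocytes and 0.0986% to 0.373% in monocytes labelled *Il1rl1*-/-. In CPM per kilobase of exon, a scale on which genes can be ranked, *Gzma*, a granule protease, stood first in WT monocytes at 593 ± 292 (mean ± SD, n = 4). The chemokine gene *Ccl5* followed at 301 ± 131 and *Ncr1*, the gene of the NK cell receptor NKp46, at 138 ± 60.1. Each SD reaches into that of the next gene, although *Gzma* was above *Ccl5* and *Ccl5* above *Ncr1* within every monocyte library. On the same scale *Cd3e*, an invariant chain of the TCR complex, was at 0.713 ± 0.415 and *Trac*, the TCR alpha constant gene, at 2.52 ± 1.38. In the heatmap of all 39 genes, the monocyte columns are the brightest for most receptors and effectors.

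**Figure D1:**
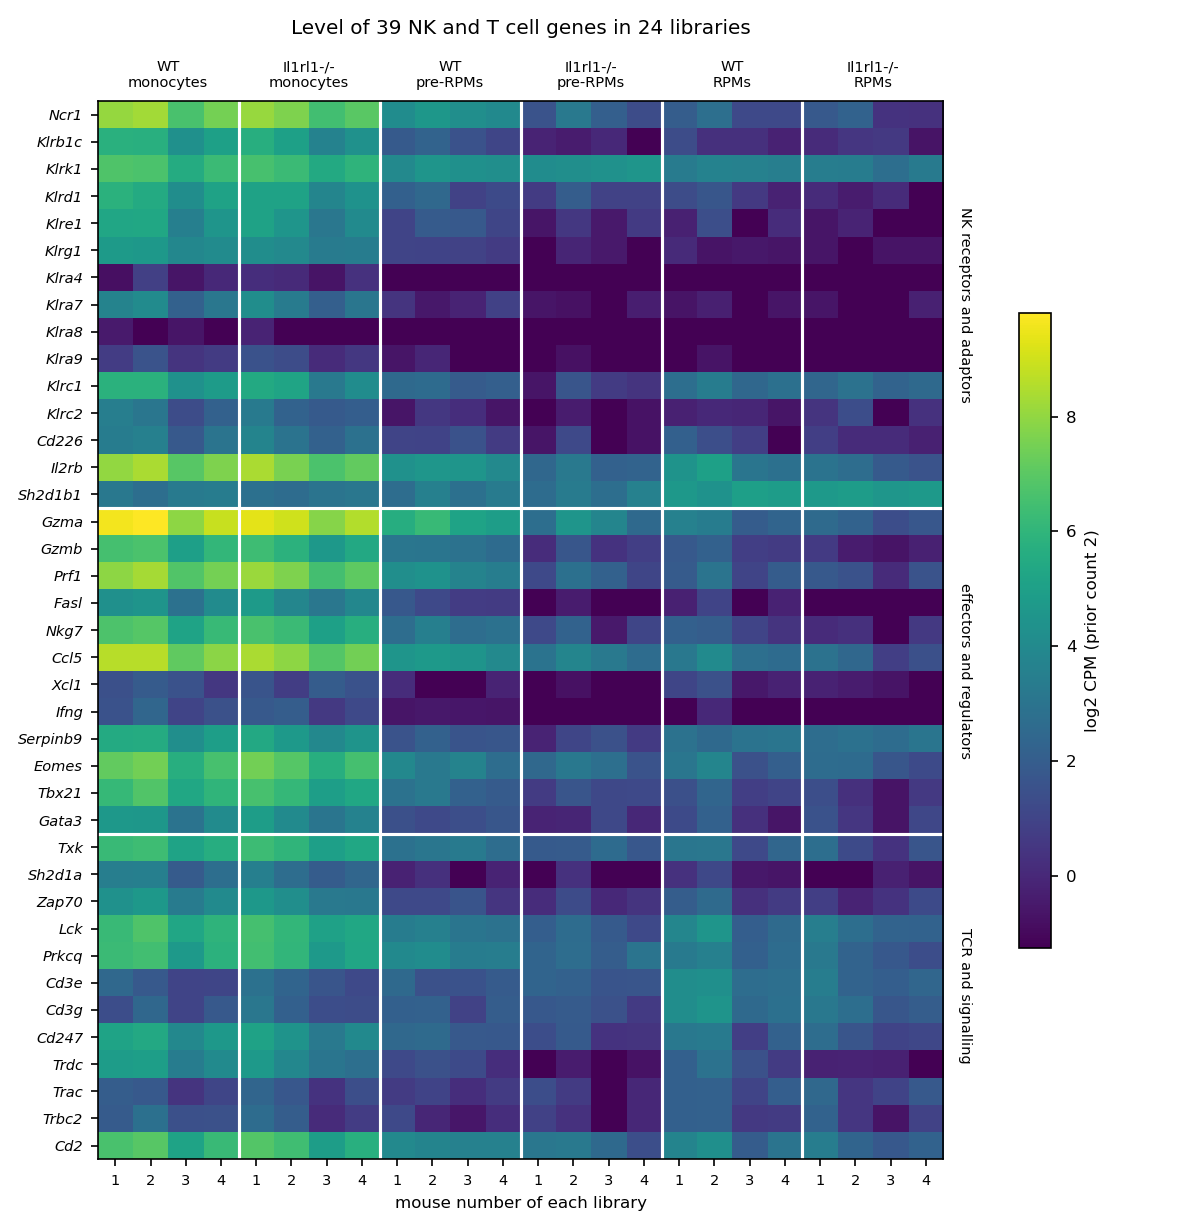
Log2 CPM of the 39 genes (rows, in their 3 groups) in the 24 libraries (columns, 4 mice per cell type and genotype label). Most receptor, effector, and signalling genes are brightest in monocytes, *Sh2d1b1*, *Cd3e*, and *Cd3g* are on average brightest in WT RPMs, and *Klra4* and *Klra8* stay near the dark end of the scale in every library.

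Not every receptor gene was detected. *Klra8*, which encodes Ly49H, had 0 to 2 counts in any library, and *Klra4*, which encodes Ly49D, had 0 to 7. Both genes are known to be missing from the Balb/c genome, while the reads were aligned to that of C57BL/6. *Klra9* reached 13 counts in a monocyte library and at most 2 in any other cell type. *Klra7*, which encodes Ly49G2, had 18 to 84 counts in WT monocytes. *Klra4*, *Klra8*, and *Klra9* entered no test between pairs of groups.

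The monocyte libraries differed among themselves. Of the 38 genes with more than 3 counts in at least 2 WT monocyte libraries, 35 were lowest in mouse 3, and 34 were higher in both mice 1 and 2 than in both mice 3 and 4. Of the 37 such genes in monocytes labelled *Il1rl1*-/-, 31 were lowest in mouse 3, and 34 were higher in both mice 1 and 2. *Ncr1* was at 268, 306, 99.6, and 179 CPM in WT mice 1 to 4 and at 275, 205, 88.5, and 125 CPM in mice 1 to 4 labelled *Il1rl1*-/-. The order of the mice thus was nearly the same across the genes. The summed CPM of 7 monocyte marker genes ran the other way in WT, at 1562, 979, 4582, and 3165 in mice 1 to 4, and in the *Il1rl1*-/- labelled libraries it was 1711, 2937, 4056, and 3627. Some lists of other cells ran with the NK genes in WT monocytes, in that mice 1 and 2 stood above mice 3 and 4. The B cell markers summed to 85.7, 110.4, 31.0, and 42.1 CPM, the basophil and mast cell markers to 80.9, 67.1, 23.9, and 28.6 CPM, and the dendritic cell markers to 77.6, 76.7, 22.5, and 39 CPM. The group 2 innate lymphoid cell markers, with *Il5* and *Il13* at 0, summed to 27, 25.4, 8.26, and 12.7 CPM. Other lists did not keep this order, with plasma cell markers at 699, 555, 527, and 634 CPM and neutrophil markers at 1416, 770, 965, and 456 CPM. Nor did the eosinophil and erythroid markers. In the *Il1rl1*-/- labelled monocytes, the dendritic cell markers were at 59.5, 30.3, 36.8, and 43.6 CPM, while the B cell and the basophil and mast cell markers kept the order. So did the group 2 innate lymphoid cell markers and, unlike in WT, the plasma cell markers, at 1269, 1881, 833, and 436 CPM. The part of these cells in the order of the mice was not tested. In bulk libraries, fewer cells of a type and less RNA per cell cannot be told apart.

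**Figure D2:**
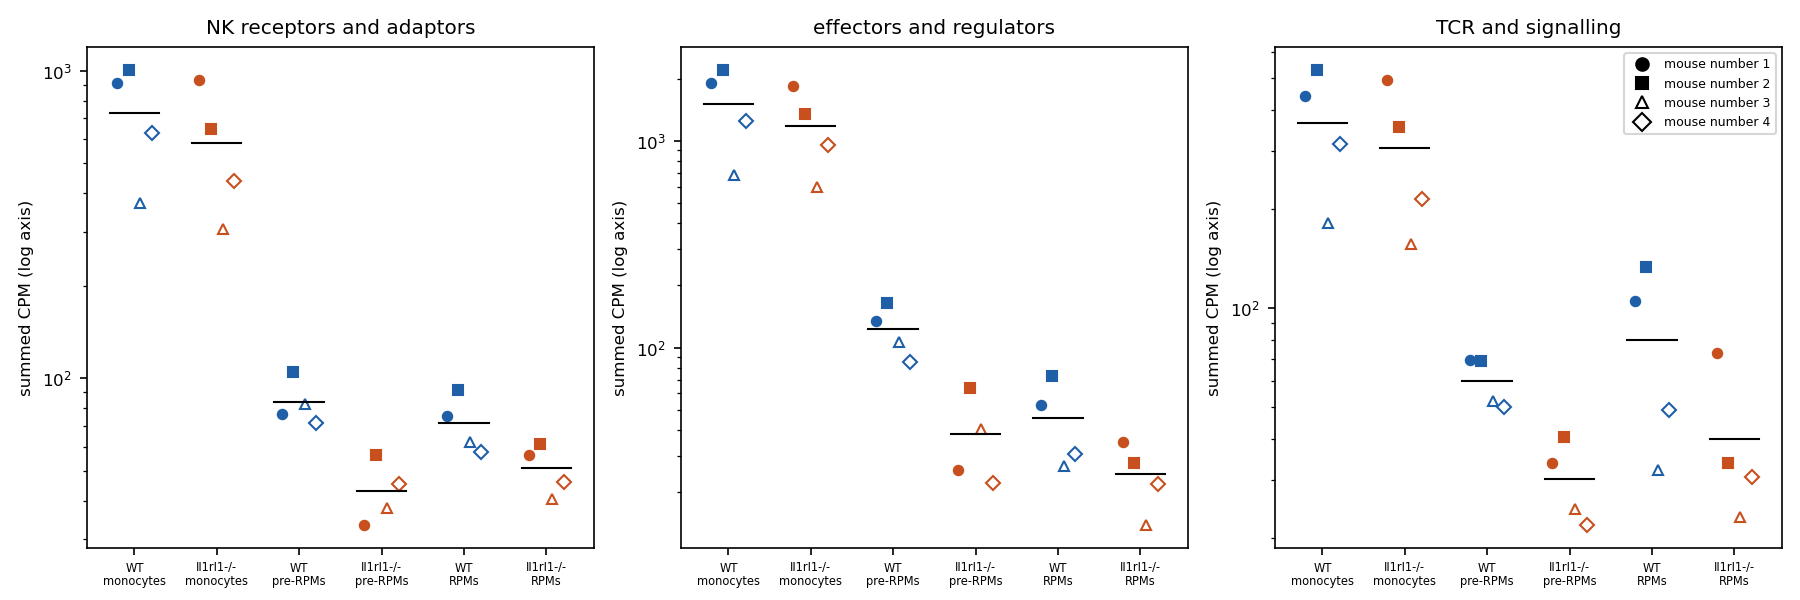
Summed CPM (log axis) of the 15 receptors and adaptors, the 12 effectors and regulators, and the 12 TCR and signalling genes in each library, WT in blue and libraries labelled *Il1rl1*-/- in orange, with filled symbols for mice 1 and 2, open symbols for mice 3 and 4, and a bar at the mean of each group (n = 4). The effectors lie between 686 and 2213 in WT monocytes and between 85.2 and 164 in WT pre-RPMs, and in every panel the symbol of mouse 3 is lowest in monocytes of both genotype labels.

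On the way from monocytes to pre-RPMs, 29 of the 33 genes tested fell and none rose in WT, while 3.25% of all genes tested fell. A call required here that the adjusted p be below 0.01 and that the level change more than 2-fold. The median log2 fold change of the 33 genes was −3.44, against 0.0069 for all genes tested, and it was −3.35 with *Sh2d1a* at the lower end of its counting interval. Of these 33 genes, 13 passed the filter on low counts through monocytes alone. Over all 39 genes, without a filter, mean CPM was lower in pre-RPMs for 37 and higher for *Cd3e* and *Cd3g*. The called genes lay between −4.13 and −2.14, and 30 of the 33 did not overlap between the groups (11.5% of all genes tested, in this direction).

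Among the receptors, 11 of the 12 tested fell. *Klrg1*, an inhibitory receptor that binds cadherins, was at 26.9, 25, 14.2, and 16.5 CPM in the 4 monocyte libraries and 1.63, 1.58, 1.47, and 1.19 CPM in the 4 pre-RPM libraries, a log2 fold change of −3.80 (adjusted p by edgeR = 0.0002, SE 0.29). *Klrb1c*, the gene of the NK1.1 antigen in C57BL/6 mice, went from 54.8, 52.7, 19, and 32.4 CPM to 3.26, 4.46, 2.45, and 1.67 CPM, with −3.75 (adjusted p by edgeR = 0.000364, SE 0.39). *Klra7* went from 12.4, 16.8, 4.13, and 8.39 CPM to 0.93, 0.263, 0.49, and 1.43 CPM, with −3.69 (adjusted p by edgeR = 0.00137, SE 0.53). For each of these receptors every monocyte library was above every pre-RPM library. The smallest fall among the receptors was that of *Klrk1*, the gene of the activating receptor NKG2D, with −2.14 (adjusted p by edgeR = 0.00052, SE 0.25). *Sh2d1b1*, which encodes the adaptor EAT-2 of SLAM family receptors, was at 8.69 ± 1.68 CPM and 8.5 ± 2.61 CPM (mean ± SD, n = 4), with −0.04 (adjusted p by edgeR = 0.921, SE 0.24).

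All 10 effectors and regulators tested fell, with log2 fold changes between −3.80 and −2.97. *Prf1* (perforin) was at 241, 317, 110.1, and 179.8 CPM in monocytes and 17.9, 20.2, 12.5, and 10.5 CPM in pre-RPMs, a log2 fold change of −3.80 (adjusted p by edgeR = 0.0002, SE 0.33). *Ccl5* was at 393, 393, 137, and 233 CPM and 22.8, 26.3, 21.6, and 15.2 CPM, with −3.75 (adjusted p by edgeR = 0.0002, SE 0.33). *Gzma* was at 771, 895, 243, and 475 CPM and 48.8, 72.5, 35.3, and 29.8 CPM, with −3.68 (adjusted p by edgeR = 0.000457, SE 0.41). Granule genes and the T-box regulators fell by similar amounts, with −3.44 for *Eomes* and −3.60 for *Tbx21*, the factors that establish NK cell identity. Though levels fell, the CPM of *Gzma* relative to *Ncr1* was 2.44 to 2.93 in WT monocytes and 1.92 to 3.03 in WT pre-RPMs.

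The TCR group split. The signalling genes *Sh2d1a*, *Zap70*, *Lck*, *Prkcq*, *Txk*, *Cd247*, and *Cd2*, and the TCR delta constant gene *Trdc*, fell in WT. *Zap70*, the kinase recruited to the TCR chains, was at 19.9, 24.4, 9.87, and 15.9 CPM and 1.86, 1.84, 2.7, and 0.952 CPM, with −3.25 (adjusted p by edgeR = 0.00038, SE 0.35). *Trdc* was at 28.6, 30.8, 10.1, and 16 CPM and 1.86, 2.36, 1.96, and 0.714 CPM, with −3.63 (adjusted p by edgeR = 0.00052, SE 0.43). Both genes were higher in each monocyte library than in any pre-RPM library. *Sh2d1a*, the gene of the adaptor SAP, had at most 3 counts in each WT pre-RPM library, and its pooled CPM was lower there by a factor of 18.9 (95% exact interval on the counts, 8.97 to 47.6). That interval covers counting error only. In contrast, *Cd3e* was at 5.19, 3.2, 1.61, and 1.65 CPM in monocytes and 5.35, 2.36, 2.45, and 3.33 CPM in pre-RPMs, and the groups overlapped (log2 fold change 0.19, adjusted p by edgeR = 0.788, SE 0.42). *Cd3g* had a log2 fold change of 0.15 (adjusted p by edgeR = 0.833, SE 0.40). *Trbc2* had one of −2.08 (adjusted p by edgeR = 0.0297, SE 0.55), and *Trac* did not pass the filter. The summed CPM of *Cd3e*, *Cd3g*, *Trac*, and *Trbc2* relative to *Ncr1* was 0.0493 to 0.0645 in WT monocytes and 0.267 to 0.726 in WT pre-RPMs.

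In the *Il1rl1*-/- labelled libraries, 29 of 33 genes tested fell over the same step (3.88% of all genes tested fell), and the 29 genes called in WT were called here too. The median log2 fold change was −4.40, against −0.0018 for all genes tested, and −4.22 with 6 genes at the lower end of their counting intervals. Of the 33 genes, 20 passed the filter through monocytes alone, and 29 did not overlap between the groups (11.1% of all genes tested, in this direction). Among the effectors, *Prf1* was at 283, 205, 90.4, and 132 CPM in monocytes and 1.89, 6.78, 4.17, and 1.68 CPM in pre-RPMs, with −5.56 (adjusted p by edgeR = 4.31e-05, SE 0.45). *Gzma* was at 657, 522, 224, and 372 CPM and 6.39, 22.4, 13.4, and 5.41 CPM, with −5.20 (adjusted p by edgeR = 4.61e-05, SE 0.45). *Lck*, the kinase that starts TCR signalling, was at 92.5, 67.7, 33.4, and 39.9 CPM and 3.78, 5.94, 3.27, and 1.86 CPM, with −3.93 (adjusted p by edgeR = 8.23e-05, SE 0.39). The groups did not overlap for any of these genes.

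Several receptor genes were nearly undetected in pre-RPMs labelled *Il1rl1*-/-, with at most 3 counts in each library. The pooled CPM of *Klrb1c* was lower than in monocytes by a factor of 87.9 (95% exact interval on the counts, 40.1 to 241). For *Klrg1* the factor was 61.4 (95% exact interval on the counts, 23.7 to 227), and for *Klra7* it was 45 (95% exact interval on the counts, 17.3 to 167). These intervals cover counting error only, and for each of these receptors every pre-RPM library was below every monocyte library. *Fasl*, the gene of the death ligand FasL, had 2 counts in the 4 pre-RPM libraries together, against 284 in monocytes, a factor of 146 (95% exact interval on the counts, 40.1 to 1212). *Trdc* had 3 counts, a factor of 81.6 (95% exact interval on the counts, 27.6 to 398). *Sh2d1a* had 5 counts in mouse 2 and 0 in the other mice, and a log2 fold change of −4.45 (adjusted p by edgeR = 0.00145, SE 0.70). *Cd3e* (−0.17, adjusted p by edgeR = 0.824, SE 0.38), *Cd3g* (−0.70, adjusted p by edgeR = 0.371, SE 0.48), *Trac* (−1.37, adjusted p by edgeR = 0.16, SE 0.62), and *Sh2d1b1* (0.28, adjusted p by edgeR = 0.492, SE 0.24) were not called.

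**Figure D3:**
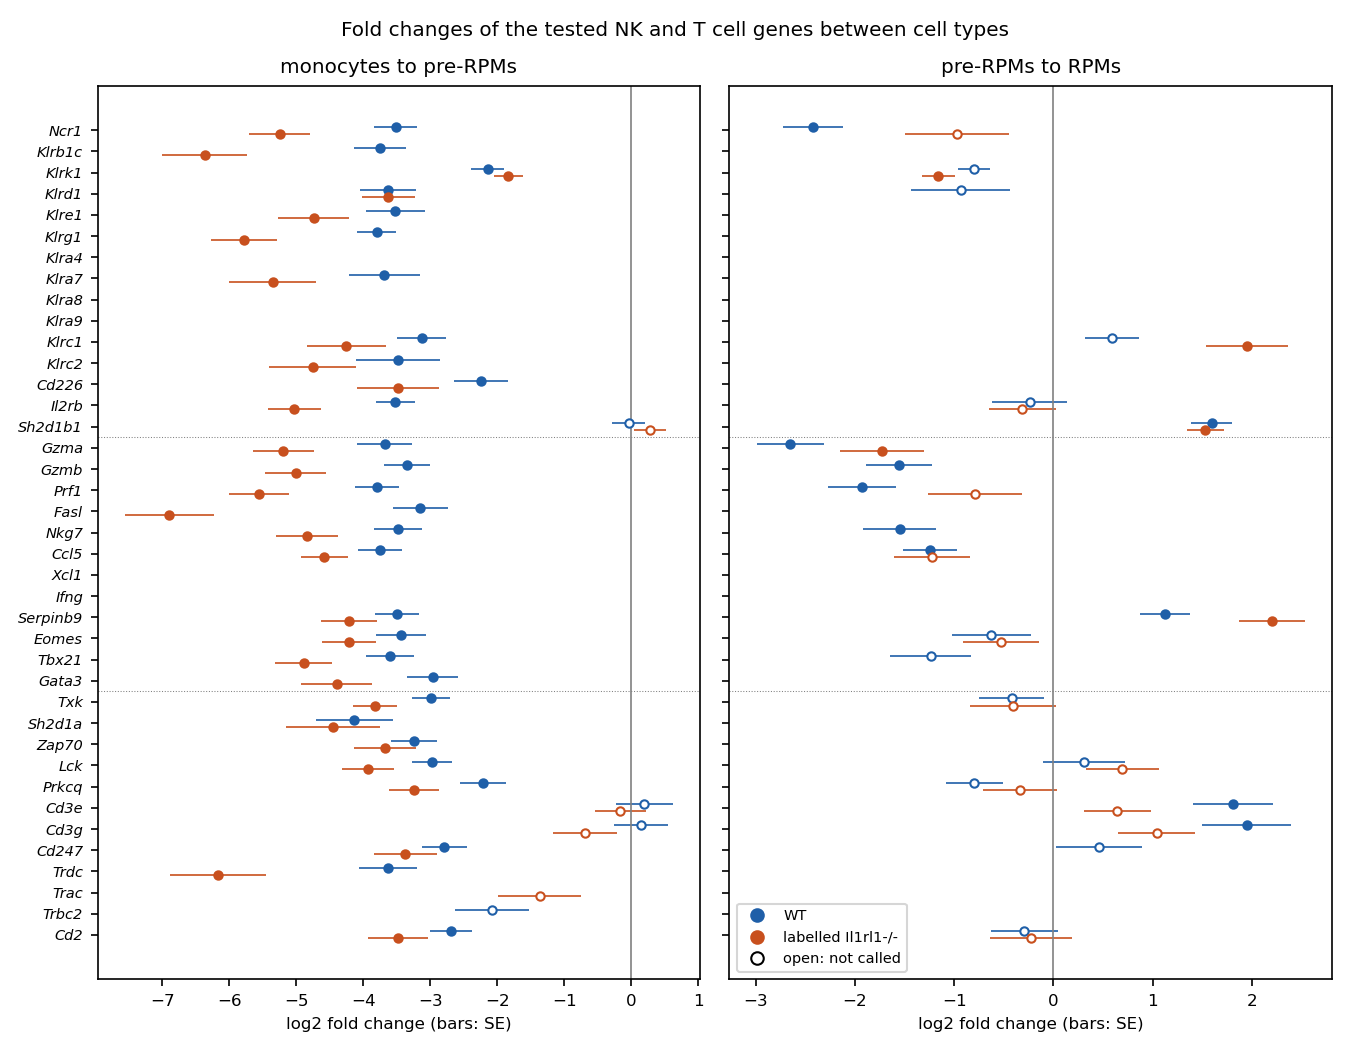
Log2 fold change of each tested gene from monocytes to pre-RPMs (left) and from pre-RPMs to RPMs (right), WT in blue and libraries labelled *Il1rl1*-/- in orange, with bars for the SE and filled points for called genes. On the left, the 29 called genes of each genotype label lie at −1.84 or below. *Cd3e* and *Sh2d1b1* lie near 0, as does *Cd3g* in blue. *Cd3g* and *Trac* in orange and *Trbc2* in blue are negative but not called. *Klrb1c*, *Klrg1*, *Klra7*, *Klrc2*, *Fasl*, and *Trdc* in orange and *Sh2d1a* in blue rest on at most 3 counts in each pre-RPM library.

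The fitted fall was larger in the *Il1rl1*-/- labelled libraries than in WT for 27 of the 29 genes called in both, by a median of 1.24 on the log2 scale. Tested as a difference between the changes, it was called for 0 of 36 genes at an adjusted p under 0.05 with edgeR (0% of all genes tested) and for 0 with DESeq2 (also 0%). Neither fit paired the libraries of the same mouse, so the spread between mice stayed in the error. A difference paired within mice was not tested. At an unadjusted p under 0.05, edgeR found 10 of the 36, against 3.80% of all genes tested. The median difference over the 36 genes was −1.18, against −0.02 for all genes. *Ncr1*, with a difference of −1.74 (adjusted p by edgeR = 1, SE 0.60), is an example. Leaving out the monocyte libraries of mouse 3 in both genotypes also gave 0.

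A list of 106 other genes of the same pathways was looked at beside them. In WT, 37 of the 72 tested fell and none rose. Among the receptors *Klra3* (−3.67), *Klri2* (−3.56), *Klrb1a* (−3.53), and *Cd96* (−3.41) fell, as did *Serpinb9b* (−3.57), with adjusted p from 0.000457 to 0.00111 by edgeR. In the *Il1rl1*-/- labelled libraries, 39 of 71 fell and none rose, with *Klrb1b* (−6.52), *Serpinb9b* (−5.51), and *Klrb1a* (−4.65) first. Markers of other cells moved over the same step. In WT, none of the 7 B cell markers was called (median log2 fold change 0.03), while 3 of 5 plasma cell markers fell (median −1.19). Of 4 neutrophil markers tested 2 fell and 1 rose, and of 3 dendritic cell markers tested, all negative, 1 fell (median −1.36). The summed CPM of the neutrophil markers was 456 to 1416 in WT monocytes and 236 to 290.1 in WT pre-RPMs, and the summed CPM of the 7 monocyte markers went from between 979 and 4582 to between 4972 and 5716. In the *Il1rl1*-/- labelled libraries, 3 of 5 neutrophil markers fell and 1 rose (median −3.23), both basophil or mast cell markers tested fell (median −2.24), 2 of 5 plasma cell markers fell (median −2.14), and none of the B cell markers was called (median −0.38). The part of these cells in the fall was not tested.

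Promoters are shown for 4 genes that fell over this step and were also lower in 1 genotype in pre-RPMs, to give the sequence around the start of genes that moved together. RefSeq promoters (GRCm38.p6), with 250 bases before the start of transcription and 50 after it, were matched for 29 of the 39 genes. The motif of T-box factors (AGGTGT or ACACCT), that of RUNX factors (TGTGGT or ACCACA), that of ETS factors (CCGGAA or TTCCGG), and that of GATA factors (AGATAA or TTATCT) were searched on both strands. The RUNX letters were in promoters of 16 of the 29 genes (55.2%), against 18.9% of the 27025 genes with an entry. The T-box letters were in 5 (17.2%, against 15.7%), the GATA letters in 3 (10.3%, against 12.7%), and the ETS letters in 2 (6.90%, against 16.7%). A match is a description of the letters and not a bound site. In the promoters printed here, 5′ to 3′ along the gene, capitals mark the T-box and RUNX letters.
*Ncr1*, chr7:4337465-4337764, plus strand: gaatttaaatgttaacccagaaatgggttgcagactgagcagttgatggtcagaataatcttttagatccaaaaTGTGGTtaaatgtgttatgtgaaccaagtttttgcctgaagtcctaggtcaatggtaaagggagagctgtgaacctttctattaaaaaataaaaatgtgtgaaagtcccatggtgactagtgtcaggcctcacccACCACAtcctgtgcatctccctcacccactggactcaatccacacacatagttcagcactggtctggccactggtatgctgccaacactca
*Prf1*, chr10:61297586-61297885, plus strand: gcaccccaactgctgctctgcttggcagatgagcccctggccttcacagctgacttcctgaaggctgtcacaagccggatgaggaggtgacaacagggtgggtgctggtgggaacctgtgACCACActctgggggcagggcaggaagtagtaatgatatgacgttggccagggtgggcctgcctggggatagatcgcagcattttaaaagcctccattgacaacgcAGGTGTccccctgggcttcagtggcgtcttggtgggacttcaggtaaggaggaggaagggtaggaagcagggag
*Gzma*, chr13:113100932-113101231, minus strand: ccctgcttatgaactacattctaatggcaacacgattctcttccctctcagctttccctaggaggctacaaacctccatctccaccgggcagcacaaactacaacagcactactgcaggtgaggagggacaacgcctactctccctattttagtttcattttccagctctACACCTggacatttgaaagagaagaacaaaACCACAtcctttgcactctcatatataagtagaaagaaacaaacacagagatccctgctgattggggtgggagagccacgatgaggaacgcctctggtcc
*Gzmb*, chr14:56262285-56262584, minus strand: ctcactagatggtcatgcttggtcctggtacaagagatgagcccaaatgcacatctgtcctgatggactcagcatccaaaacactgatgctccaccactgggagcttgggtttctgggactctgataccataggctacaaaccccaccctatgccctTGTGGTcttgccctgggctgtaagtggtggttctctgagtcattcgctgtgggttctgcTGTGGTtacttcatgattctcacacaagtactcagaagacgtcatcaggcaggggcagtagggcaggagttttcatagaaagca
*Ncr1* and *Gzmb* each hold the RUNX letters at 2 places. *Prf1* holds the T-box letters at position -24 and the RUNX letters at position -130, counted from the start of transcription. In *Gzma* they lie at positions -80 and -50.

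From pre-RPMs to RPMs the genes no longer moved together. In WT, 10 of the 21 tested were called, 6 lower and 4 higher, against 10.7% and 14% of all genes tested, so 4 of 21 for the higher genes is near the background of this step. Without overlap between the groups were 6 lower and 4 higher (20.9% and 25.7% of all genes tested). Of these 21 genes, 8 passed the filter on low counts through pre-RPMs alone, which favours lower values among them. Another 3 passed through RPMs alone, which favours higher values. Over all 39 genes, without a filter, mean CPM was lower in RPMs for 23, higher for 14, and 0 in both groups for 2. *Ncr1* and 5 effector genes fell further. *Ncr1* was at 17, 23.9, 18.4, and 15.5 CPM in pre-RPMs and 3.6, 6.51, 1.87, and 1.85 CPM in RPMs, with −2.42 (adjusted p by edgeR = 1.21e-05, SE 0.30). *Gzma* was at 48.8, 72.5, 35.3, and 29.8 CPM and 11.6, 9.97, 3.47, and 4.62 CPM, with −2.65 (adjusted p by edgeR = 1.31e-05, SE 0.34). *Prf1* was at 17.9, 20.2, 12.5, and 10.5 CPM and 3.39, 7.53, 1.6, and 3.46 CPM, with −1.93 (adjusted p by edgeR = 0.000276, SE 0.34). For all 3 genes the RPM libraries lay below the pre-RPM libraries without overlap. *Gzmb* was at 8.14, 7.88, 7.11, and 5.71 CPM and 3.17, 4.07, 1.34, and 1.15 CPM, with −1.56 (adjusted p by edgeR = 0.00135, SE 0.33). *Nkg7*, which encodes a membrane protein of cytotoxic granules, fell by 1.55 on the log2 scale and *Ccl5* by 1.24. Fitted jointly with all 24 libraries, *Gzmb*, *Nkg7*, *Ccl5*, and *Serpinb9* lost their calls (adjusted p by edgeR from 0.0159 to 0.0291), and *Nkg7* also lost its call without mouse 2 in pre-RPMs.

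*Cd3e* and *Cd3g* rose in WT. *Cd3e* was at 17.6, 18.5, 6.15, and 6.46 CPM in RPMs of mice 1 to 4, a log2 fold change of 1.81 (adjusted p by edgeR = 0.00194, SE 0.41). *Cd3g* was at 3.95, 4.2, 1.47, and 3.57 CPM in pre-RPMs and 17.8, 22, 5.34, and 6.69 CPM in RPMs, with 1.95 (adjusted p by edgeR = 0.00241, SE 0.45). Mice 1 and 2 stood above mice 3 and 4, as they did for all 12 TCR and signalling genes in WT RPMs. The summed CPM of *Cd3e*, *Cd3g*, *Trac*, and *Trbc2* relative to *Ncr1* was 7.47 to 12.1 in WT RPMs, above its range in monocytes and pre-RPMs, and it was 3 to 15.5 in RPMs labelled *Il1rl1*-/-, where *Ncr1* had only 4 to 26 counts. The CPM of *Gzma* relative to *Ncr1* was 1.53 to 3.24 in WT RPMs.

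*Sh2d1b1* and *Serpinb9* rose in both genotypes. *Sh2d1b1* was at 6.05, 11.6, 6.62, and 9.76 CPM in WT pre-RPMs and 24.6, 20.6, 31.8, and 29.1 CPM in WT RPMs, with 1.59 (adjusted p by edgeR = 1.92e-05, SE 0.21). In the *Il1rl1*-/- labelled libraries it went from 5.91, 9.84, 6.25, and 11.7 CPM to 26.5, 28.9, 23, and 26 CPM, with 1.53 (adjusted p by edgeR = 3.73e-06, SE 0.18). In CPM per kilobase *Sh2d1b1* had the highest mean of the 39 genes in RPMs, at 10.4 ± 1.95 in WT and 10.3 ± 0.952 in the *Il1rl1*-/- labelled libraries (mean ± SD, n = 4). The order was not the same in every WT library, since *Ccl5* averaged 9.57 ± 4.82, *Gzma* was above *Sh2d1b1* in mouse 1, and *Ccl5*, *Cd2*, and *Gzma* were above it in mouse 2. *Serpinb9*, whose product inhibits granzyme B, changed by 1.13 (adjusted p by edgeR = 0.0019, SE 0.25) in WT. In the *Il1rl1*-/- labelled libraries it went from 0.473, 1.7, 2.38, and 1.12 CPM to 6.05, 6.86, 5.92, and 7.88 CPM, with 2.20 (adjusted p by edgeR = 4.25e-05, SE 0.33). These genes were higher in RPMs while the granule genes were lower or not called.

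In the *Il1rl1*-/- labelled libraries, 5 of 16 genes tested were called from pre-RPMs to RPMs, 3 higher and 2 lower. The shares of all genes tested were 14.5% and 11.5%, so both counts are near the background of this step. Without overlap between the groups were 3 higher and 1 lower, neither above the shares of all genes tested (27% and 22.4%). Of the 16 genes, 5 passed the filter through pre-RPMs alone, which favours lower values, and 4 through RPMs alone, which favours higher values. Over all 39 genes, without a filter, mean CPM was lower in RPMs for 20, higher for 16, and 0 in both groups for 3. Besides *Sh2d1b1* and *Serpinb9*, *Klrc1*, the gene of the inhibitory receptor NKG2A, was higher, from 0.236, 2.71, 1.19, and 0.932 CPM to 4.93, 7.19, 4.39, and 5.32 CPM, with 1.95 (adjusted p by edgeR = 0.000921, SE 0.41). *Klrk1* was lower, from 17.3, 18, 19.6, and 22.7 CPM to 10.3, 10.1, 6.36, and 9.16 CPM, with −1.16 (adjusted p by edgeR = 2.22e-05, SE 0.16). *Gzma* went from 6.39, 22.4, 13.4, and 5.41 CPM to 5.6, 4.25, 2.19, and 2.98 CPM, with −1.73 (adjusted p by edgeR = 0.00291, SE 0.42). The groups overlapped for *Gzma*, which lost its call without mouse 2 in pre-RPMs or mouse 3 in RPMs, and not for *Klrk1*. The change over this step differed between genotypes for 0 of 24 genes tested with edgeR (0.107% of all genes tested), with 3 at an unadjusted p under 0.05 (7.52% of all genes tested), and for 0 with DESeq2 (0.354%). Calls in a single genotype, such as that of *Ncr1*, were therefore not shown to differ. Here too the libraries of the same mouse were not paired. Of the other pathway genes, 15 fell and 8 rose among 62 tested in WT, and 17 fell and 7 rose among 53 tested in the *Il1rl1*-/- labelled libraries. The largest called changes in WT were those of *Nfil3* (−5.67), *Itgal* (−4.54), *Icos* (3.37), *Cd4* (3.12), and *Itga2* (−3.10), and in the *Il1rl1*-/- labelled libraries those of *Itgal* (−5.67), *Nfil3* (−5.51), *Klrb1f* (−3.88), *Runx3* (−3.56), and *Cd4* (3.14).

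Between genotypes, genes were called in pre-RPMs and, in the main edgeR fit, in no other cell type. In RPMs, calls came only with other settings, such as a block on mouse number or a test of every gene with at least 1 count. Of the 20 tested in pre-RPMs, 7 were lower in the *Il1rl1*-/- labelled libraries and none higher, at an adjusted p under 0.05, while 0.383% of all genes tested were lower. The 7 were the receptor genes *Ncr1* and *Il2rb*, the effector genes *Gzma*, *Gzmb*, *Prf1*, and *Ccl5*, and *Prkcq*. The groups did not overlap for 14 of the 20, all lower (2.55% of all genes tested), and the median log2 fold change was −1.24, against −0.0025. Of the 20 genes, 9 passed the filter through WT alone, which favours lower values among them. Over all 39 genes without a filter, mean CPM was lower in the *Il1rl1*-/- labelled libraries for 35, higher for *Klrk1* and *Cd3e*, and 0 in both groups for *Klra4* and *Klra8*.

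*Ncr1* (chr7:4337724-4345164, plus strand) was at 17, 23.9, 18.4, and 15.5 CPM in the 4 WT pre-RPM libraries and 2.6, 8.82, 3.87, and 2.05 CPM in the 4 labelled *Il1rl1*-/-, with −2.04 (adjusted p by edgeR = 0.00388, SE 0.31). *Il2rb* (chr15:78479256-78495271, minus strand), the gene of the receptor chain through which IL-2 and IL-15 signal, was at 19.8, 22.8, 22.3, and 15 CPM and 4.97, 8.99, 4.17, and 4.47 CPM, with −1.77 (adjusted p by edgeR = 0.000762, SE 0.22). For both genes each WT library was above each library labelled *Il1rl1*-/-. By contrast the receptor gene *Klrk1* was at 15.1, 22.6, 19.4, and 18.3 CPM and 17.3, 18, 19.6, and 22.7 CPM, with 0.05 (adjusted p by edgeR = 0.966, SE 0.14). *Klrc1*, at 4.59 ± 1.15 CPM and 1.27 ± 1.04 CPM, had −1.74 (adjusted p by edgeR = 0.102, SE 0.43). Of the receptor genes with at most 3 counts in each library labelled *Il1rl1*-/-, none of which was tested, *Klrb1c* had 48 counts over the WT libraries and 6 over the others, lower by a factor of 9.2 (95% exact interval on the counts, 3.93 to 26.3) in pooled CPM. *Klrg1* had 24 and 4, a factor of 6.9 (95% exact interval on the counts, 2.37 to 27.4). *Fasl*, an effector gene below the same limit, had 30 and 2, a factor of 17.3 (95% exact interval on the counts, 4.38 to 149). These intervals cover counting error only, and not the spread between the mice of each genotype.

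The granule genes were lower by similar amounts. *Gzma* (chr13:113093825-113100981, minus strand) was at 48.8, 72.5, 35.3, and 29.8 CPM and 6.39, 22.4, 13.4, and 5.41 CPM, with −1.94 (adjusted p by edgeR = 0.012, SE 0.34). *Gzmb* (chr14:56258838-56262260, minus strand) was at 8.14, 7.88, 7.11, and 5.71 CPM and 0.709, 2.88, 0.893, and 1.3 CPM, with −2.19 (adjusted p by edgeR = 0.00512, SE 0.34). *Prf1* (chr10:61297833-61304680, plus strand) was at 17.9, 20.2, 12.5, and 10.5 CPM and 1.89, 6.78, 4.17, and 1.68 CPM, with −2.03 (adjusted p by edgeR = 0.00762, SE 0.34). In none of the 3 genes did the groups overlap, and mouse 2 was the highest of the *Il1rl1*-/- labelled libraries in each. *Ccl5* (chr11:83525778-83530518, minus strand) was at 22.8, 26.3, 21.6, and 15.2 CPM and 7.33, 13.6, 8.93, and 5.97 CPM, with −1.24 (adjusted p by edgeR = 0.0144, SE 0.22). *Prkcq* (chr2:11172108-11301222, plus strand), the gene of the protein kinase C theta of TCR signalling, was at 15.8, 17.3, 10.1, and 10.5 CPM and 4.49, 6.11, 3.57, and 7.64 CPM, with −1.25 (adjusted p by edgeR = 0.0277, SE 0.25). *Nkg7* (−1.75, adjusted p by edgeR = 0.0695, SE 0.40), *Tbx21* (−1.59, adjusted p by edgeR = 0.0695, SE 0.36), and *Lck* (−1.26, adjusted p by edgeR = 0.0764, SE 0.29) did not pass the threshold. *Cd3e* was at 3.37 ± 1.39 CPM and 3.51 ± 0.909 CPM (mean ± SD, n = 4), with 0.06 (adjusted p by edgeR = 0.982, SE 0.32).

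**Figure D4:**
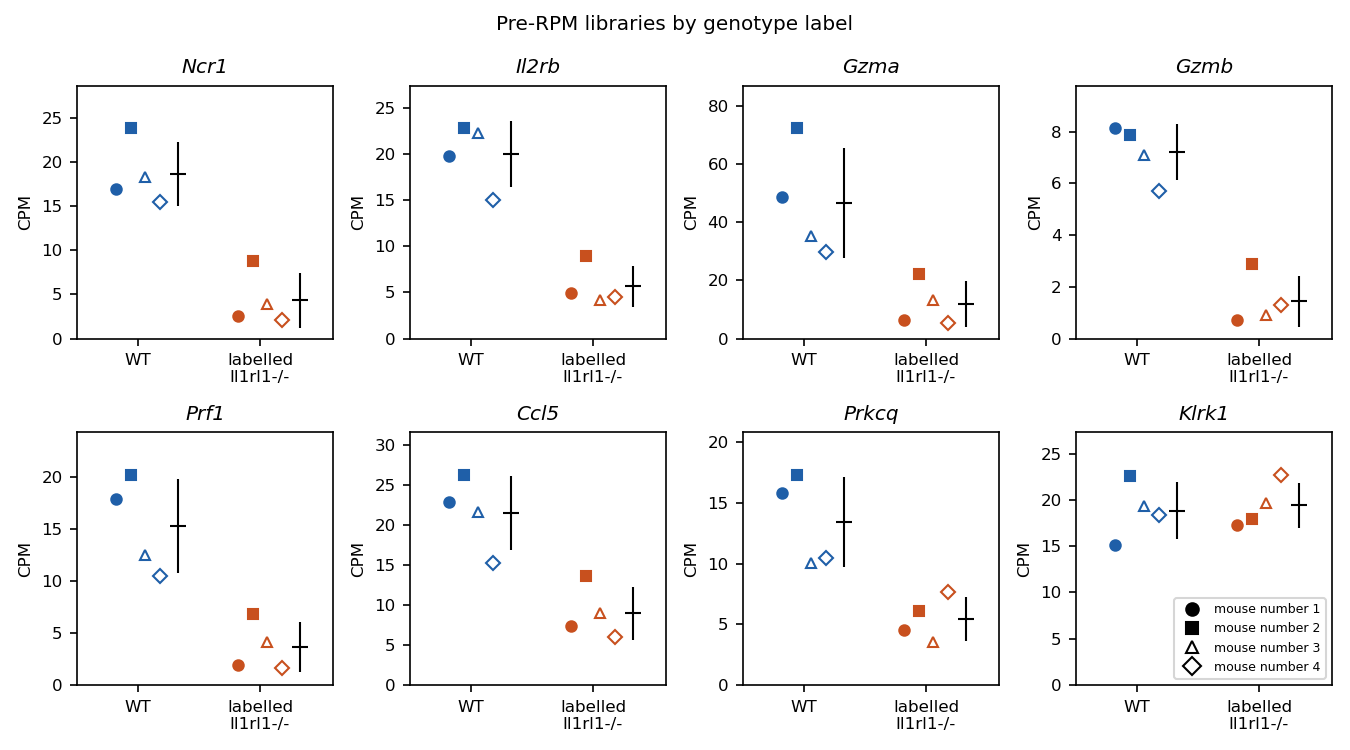
CPM of the 7 called genes and of *Klrk1* in pre-RPM libraries, WT in blue and libraries labelled *Il1rl1*-/- in orange, with filled symbols for mice 1 and 2, open symbols for mice 3 and 4, and the mean ± SD beside each group (n = 4). The groups do not overlap in the first 7 panels and overlap for *Klrk1*.

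When the 24 libraries were fitted jointly, none of the 7 genes was called (adjusted p by edgeR from 0.121 to 0.581). *Prkcq* lost its call without mouse 1 or 2 of WT or mouse 1, 2, or 3 of the *Il1rl1*-/- labelled libraries, and *Ccl5* lost its own without mouse 1 of either genotype or mouse 4 of the *Il1rl1*-/- labelled libraries, with adjusted p by edgeR from 0.0514 to 0.0999. Mouse 2 of the *Il1rl1*-/- labelled libraries was the highest there for 16 of 25 genes with counts. Other genes of the pathways that were lower, with adjusted p by edgeR from 0.000418 to 0.0144, were *Il18r1* (−2.24), which lies next to *Il1rl1* on chromosome 1, *Gimap4* (−1.79), *Gimap3* (−1.59), and the integrin gene *Itga2* (−1.45). In all, 7 of 56 tested were lower and none higher. Markers of other cells moved in the same libraries. The 7 B cell markers were all negative, with 2 called, and their summed CPM was 54.9 to 75.3 in WT and 26.2 to 54.6 in the *Il1rl1*-/- labelled libraries. That of 8 basophil and mast cell markers was 12.6 to 65.0 and 3.31 to 5.22, with *Fcer1a* and *Prss34* at 0 in the *Il1rl1*-/- labelled libraries. That of 6 erythroid markers was 7.88 to 615 and 7.33 to 32.3. Not every list was lower. All 3 dendritic cell markers tested were positive (median log2 fold change 0.64), as were 3 of 4 neutrophil markers (median 0.36). The plasma cell markers had a median of −0.02, and 0 genes of these last 3 lists were called. The 7 monocyte markers were at 4972 to 5716 and 4611 to 5529. The part of other cells in the lower levels was not tested.

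In monocytes, 0 of 36 genes tested were called between genotypes by edgeR (0.0614% of all genes tested) and 0 by DESeq2 (0.202%), with 1 at an unadjusted p under 0.05 (3.59% of all genes tested). The median log2 fold change was −0.29, against −0.0050, and 32 of the 36 were negative. *Ncr1* averaged 213 ± 92.5 CPM for WT and 173 ± 83.2 CPM for the *Il1rl1*-/- labelled libraries (mean ± SD, n = 4), with −0.31 (adjusted p by edgeR = 0.997, SE 0.39). *Gzma* was at 596 ± 294 CPM and 444 ± 187 CPM, with −0.43 (adjusted p by edgeR = 0.997, SE 0.41). The groups overlapped in each of the 36 genes (1.26% of all genes tested were lower without overlap), and for *Ncr1* and *Gzma* the SD within each genotype exceeded the difference of the means. None of 80 other pathway genes tested was called.

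In RPMs, 0 of 18 genes tested were called by edgeR (0.233% of all genes tested) and 0 by DESeq2 (0.43%), with 6 at an unadjusted p under 0.05 (7.27% of all genes tested). All 18 were negative, with a median of −0.88 against −0.0012, and the groups overlapped in each (1.73% of all genes tested were lower without overlap). Of the 18 genes, 3 passed the filter through WT alone, which favours lower values among them. Over all 39 genes without a filter, mean CPM was lower in the *Il1rl1*-/- labelled libraries for 36, higher for *Klrc2*, and 0 in both groups for *Klra4* and *Klra8*. Of the genes not tested, *Gzmb* and *Trdc* were lower without overlap, but at few counts. For *Gzmb* the lowest WT library was at 1.15 CPM and the highest library labelled *Il1rl1*-/- at 1.12 CPM. *Trdc* had at most 3 counts in each library labelled *Il1rl1*-/-. A share without overlap was not taken over all genes that were not tested. None of 59 other pathway genes tested was called. With same-numbered mice as a block, 3 were lower (0.726% of all genes tested were called). Those mice differ between genotypes, and only 1 of the 4 *Il1rl1*-/- labelled libraries correlated most with the WT library of its own number. *Il2rb*, at 21.2, 32.6, 7.75, and 6.69 CPM in WT and 7.4, 6.05, 3.29, and 2.56 CPM in the *Il1rl1*-/- labelled libraries, had −1.84 (adjusted p by edgeR = 0.283, SE 0.48) without the block and −1.78 (adjusted p by edgeR = 0.000257) with it. *Cd3g* had −1.31 without and −1.26 with the block (adjusted p by edgeR = 0.00754), and *Ccl5* had −1.22 and −1.26 (adjusted p by edgeR = 0.0496). In WT RPMs, mice 1 and 2 were both above mice 3 and 4 for 25 of the 30 genes with counts. The summed CPM of 6 erythroid markers in the same libraries was 1900, 1200, 23588, and 9712 in mice 1 to 4, and that of the 7 B cell markers was 87.6, 121, 35.8, and 56.1. Between genotypes, 6 of the 7 B cell markers were negative in RPMs (median −0.77, 4 at an unadjusted p under 0.05), as were 3 of 4 plasma cell markers tested (median −0.96, 2 at an unadjusted p under 0.05), and none of these was called. The 7 red pulp macrophage markers were all positive (median 0.21, 3 at an unadjusted p under 0.05 by edgeR), with none called. Their summed CPM was 4612 to 6165 in WT and 6411 to 6741 in the *Il1rl1*-/- labelled libraries. The part of any of these cell types in the order of the mice or in the difference between genotypes was not tested.

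**Figure D5:**
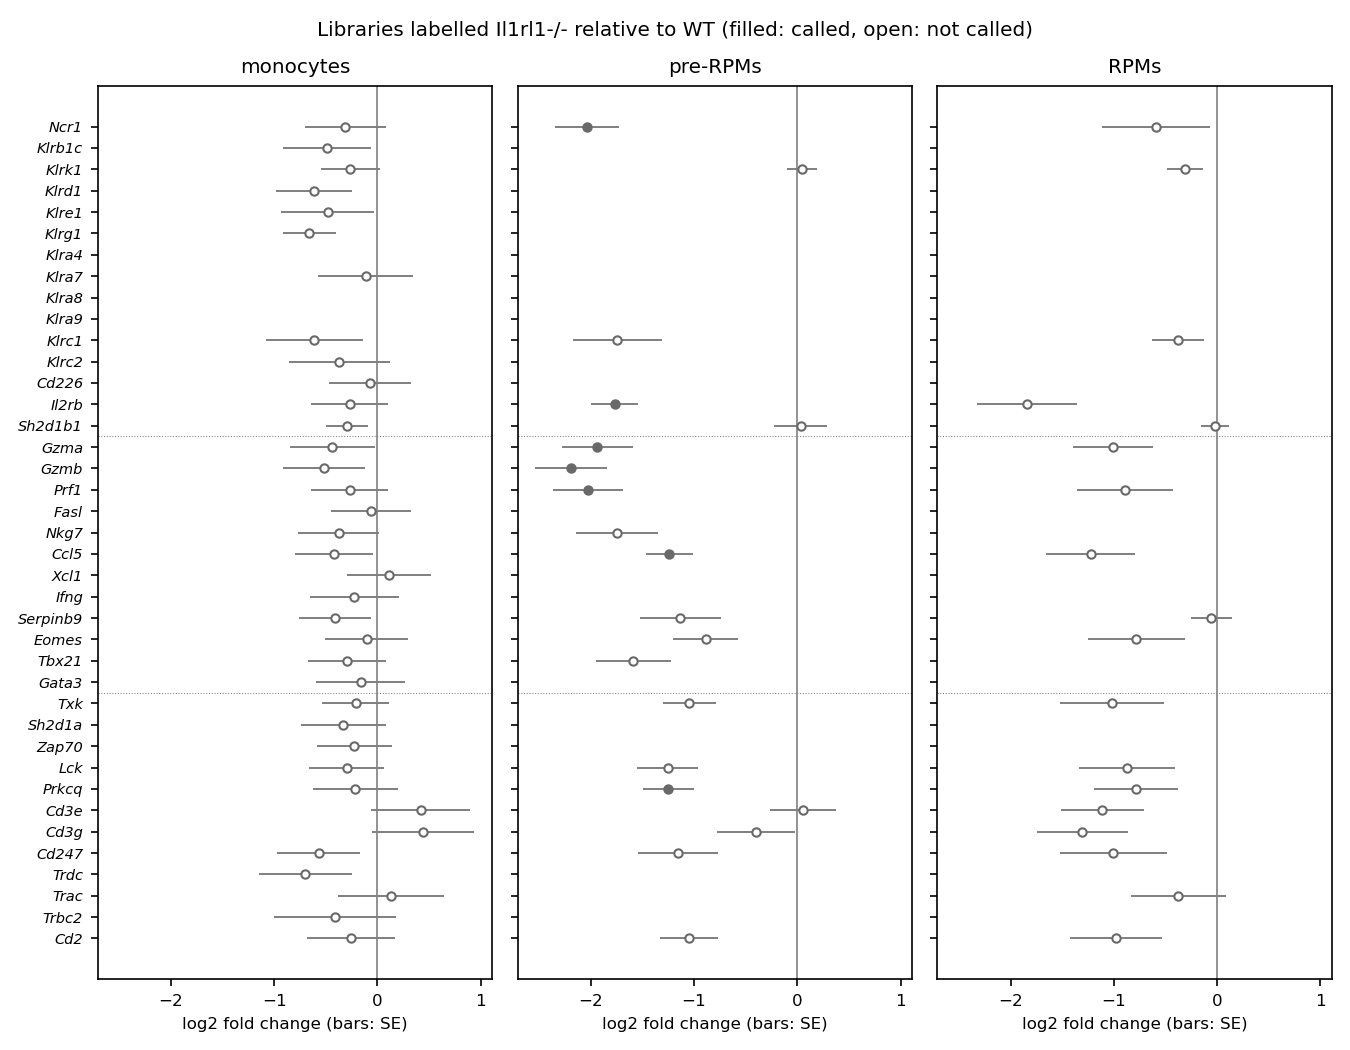
Log2 fold change of each tested gene in libraries labelled *Il1rl1*-/- relative to WT in monocytes (36 genes), pre-RPMs (20 genes), and RPMs (18 genes), with bars for the SE and filled points for called genes. Filled points occur in pre-RPMs, for 7 genes at −1.24 or below, and most open points in each panel lie left of 0.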

How the data were processed

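RNA-seq was available for 24 libraries, each from 1 mouse and 1 cell type, and the 24 chromatin accessibility samples of the series were not used here. After trimming by cutadapt and alignment by STAR 2.5.1, the authors deposited counts of read pairs per gene, made strand-specifically with featureCounts 1.6.2 over GRCm38 exons joined by gene name. These deposited counts had not been normalized.

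Groups were taken from the labels. For each pair of groups, edgeR 4.0.16 in R 4.3.3 was run (filterByExpr, TMM, quasi-likelihood F test, Benjamini-Hochberg adjustment over all genes tested). Genotypes and differences between changes were called at an adjusted p under 0.05. For cell types the limits were 0.01 for the adjusted p and 1 for the absolute log2 fold change. CPM used TMM factors over the 24 libraries, and log2 CPM a prior count of 2. The SE was derived from the F statistic. Replicates are separate mice by label, and no pair of replicates agreed within sampling noise (smallest chi-square per degree of freedom 3.85 over 36 pairs).

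The genes and lists were chosen with earlier results of these data known. Values in every library are given for genes called between genotypes and, per step, for up to 3 called genes of each group with the largest change, and up to 5 other pathway genes per comparison are named, 1 of which is not reported here. Libraries of the same number come from 1 mouse within a genotype, by label. Between genotypes they are different mice, whose deviations from the group means correlated at 0.118 to 0.452 in monocytes and 0.149 to 0.182 in RPMs. The highest correlation was with the same number for 2 of the 4 *Il1rl1*-/- labelled libraries in monocytes and for 1 of 4 in RPMs. Alternatives were DESeq2 1.42.0, RLE factors, every gene with at least 1 count, a fit of the whole set of libraries, a block on mouse number, each library left out, and, chosen after seeing the data, both monocyte libraries of mouse 3 left out. Tested on simulated data of 10698 genes, with 200 changed 2-fold, edgeR recovered 154 for the genotype comparison in pre-RPMs. For the step from monocytes to pre-RPMs in WT, with 11091 genes, it recovered 101 of 200. False calls made up 4.94% and 9.01% of its calls in these simulations. Figures were drawn with matplotlib.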

Additional observations from a re-analysis of the deposited data

Results flagged for a closer look

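In pre-RPMs labelled Il1rl1-/-, *Il2rb* was at 8.99 CPM in mouse 2, while the other 3 mice lay between 4.17 and 4.97 CPM, so 1 library stood apart from the rest of its group. It was the only such value among 66 groups of 4 libraries looked at (genes called between genotypes and summed levels), where chance gives about 1 in 20.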

How the results depend on the processing

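The number of the 39 genes called between genotypes in pre-RPMs depended on the processing most. It was 7 in the fit described, 11 with DESeq2, 17 when every gene with at least 1 count was tested, and 0 when the 24 libraries were fitted jointly, while the share of all genes called was 0.748% with DESeq2, 0.889% with every gene, and 1.36% with the block. Leaving out a library gave 5 to 9. With the mouse number as a replicate block it was 13, where same-numbered libraries share only a number (correlations 0.0452 to 0.155, each highest with its own number). In RPMs the number went from 0 to 10 when every gene with at least 1 count was tested (0.839% of all genes) and to 3 with the replicate block. Testing every gene gave 9 instead of 5 from pre-RPMs to RPMs in the libraries labelled Il1rl1-/- (11.9% of all genes, against 26%). It gave 10 and 1 instead of 0 for the differences between genotypes in the first and the second step (0.227% and 0.63% of all genes). The cause was not tested.

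Leaving out a library gave 26 to 30 genes from monocytes to pre-RPMs in WT and 29 to 30 in the libraries labelled Il1rl1-/-, 10 to 12 and 4 to 6 from pre-RPMs to RPMs, and 0 for the other comparisons. The block changed no other count by over 1.5 times. In WT, the calls lost in the first step were those of *Klrc2*, *Cd226*, and *Prkcq*. Over 1040 refits of 80 results of single genes, the direction was kept in each, and a call was lost in 40. Levels of a few counts per library limit the receptors and the genes of the TCR chains.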
